A study of Mus musculus with 52 samples.

Results

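The receptors through which haematopoietic growth factors act on dendritic cells, and the surface protein gene Plet1, were followed in CD103+ conventional type 1 dendritic cells (cDC1) of the mouse. The 7 genes were taken by name from a table of 23135 genes: Flt3, Csf2ra, Csf2rb, Csf2rb2, Csf1r, Kit and Plet1. All 7 passed the filter on low counts at 4 h and at 24 h. Per the labels, cDC1 were grown from C57BL/6 bone marrow with GM-CSF (300 pg/ml) and FLT3L (55 ng/ml) for 9 days and, in fresh medium, for 5 days more, then sorted as CD103+ cells. The sorted cells of every group were treated in medium that still held growth factors, so ligands of FLT3 and of the GM-CSF receptor were present in the controls too.

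The RNA 3' ends of 52 bulk libraries were counted with unique molecular identifiers, each of 13 groups having 4. The 4 h groups received PGE2 (100 ng/ml), PGE2 added 30 min after an antagonist (5 uM) titled EP1 (SC-19220), EP2 (PF-04418948), EP3 (L-826,266) or EP4 (L161,982), PGE2 after the pair titled EP2 + EP4, control BRAFV600E melanoma conditioned medium (CM), Ptgs1/Ptgs2-/- BRAFV600E CM, which is stated to lack PGE2, or no treatment (untreated cells). At 24 h they were PGE2 with poly I:C (10 ug/ml, a TLR3 ligand, for the last 4 h), poly I:C alone, PGE2 alone and untreated cells. The treatment label of the group titled EP2 + EP4 lists SC-19220, the compound of the EP1 group, with L161,982, so which 2 receptors were blocked there cannot be told from the labels. The Ptgs genes are missing from the melanoma cells that conditioned the medium, not from the cDC1.

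PGE2 is a prostaglandin made by the cyclooxygenases that Ptgs1 and Ptgs2 encode, and cells sense it through the receptors EP1 to EP4. FLT3 and KIT are receptor tyrosine kinases for FLT3 ligand and stem cell factor, and CSF1R is the receptor tyrosine kinase of macrophage colony-stimulating factor. The GM-CSF receptor pairs a ligand-binding alpha chain, CSF2RA, with a signalling beta chain, CSF2RB, which the receptors of interleukin-3 and interleukin-5 share. The mouse has a 2nd beta chain gene, Csf2rb2, whose product serves interleukin-3. FLT3 ligand drives the development of cDC1, and GM-CSF added to such cultures favours CD103+ cells. PLET1 is a membrane-anchored protein known from placenta, from hair follicle epithelium and from CD103+ dendritic cells of the intestine.

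The 250 bases before the start of 3 of the genes are shown because 2 of them, Plet1 and Csf2rb2, moved together with PGE2 at 4 h and the third, Csf2ra, did not pass the test (RefSeq windows, GRCm38.p6; Plet1 chr9:50494275-50494524 plus strand, Csf2rb2 chr15:78305722-78305971 minus strand, Csf2ra chr19:61228419-61228668 minus strand). Capitals mark matches to the cAMP response element TGACGTCA, its short form TGACG or the STAT motif TTCNNNGAA, on either strand. The short form is part of the full element, so that matches overlap.
Plet1: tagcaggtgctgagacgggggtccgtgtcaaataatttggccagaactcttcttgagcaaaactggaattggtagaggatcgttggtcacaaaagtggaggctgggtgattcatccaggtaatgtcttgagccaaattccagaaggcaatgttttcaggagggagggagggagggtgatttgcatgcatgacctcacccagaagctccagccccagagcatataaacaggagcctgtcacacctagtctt
Csf2rb2: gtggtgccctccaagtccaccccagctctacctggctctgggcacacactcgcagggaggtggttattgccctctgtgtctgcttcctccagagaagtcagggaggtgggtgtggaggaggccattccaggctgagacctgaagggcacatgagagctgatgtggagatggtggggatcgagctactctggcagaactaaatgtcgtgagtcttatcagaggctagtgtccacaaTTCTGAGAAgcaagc
Csf2ra: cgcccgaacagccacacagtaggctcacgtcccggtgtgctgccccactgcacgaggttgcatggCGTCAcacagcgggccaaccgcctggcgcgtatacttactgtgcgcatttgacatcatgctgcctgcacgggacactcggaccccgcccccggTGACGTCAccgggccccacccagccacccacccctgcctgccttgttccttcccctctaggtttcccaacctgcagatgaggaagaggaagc

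Windows of 5 genes were searched (Flt3, Csf2ra, Csf2rb2, Kit and Plet1), and those of Csf1r and Csf2rb were not. Of the 5, the full element was found in Csf2ra, 92 bases before the start, together with a further short form 185 bases before it. Csf2rb2 held a STAT match 15 bases before the start. The windows of Plet1, Flt3 and Kit held none of the 3 motifs. Among 32851 promoter windows of 300 bases (250 before and 50 after the start), 1.79% held the full element, 20.8% the short form and 8.3% the STAT motif. A match is a run of letters and not a measured binding site.

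Libraries held 42666 to 438491 counts. The smallest were EP4 antagonist A, and untreated A at 4 h with 54107. Levels are CPM, the usual unit of counts relative to the library total, with totals adjusted by TMM scaling over all 52 libraries, and a count of 0 allows up to 9.95 CPM at the median of the libraries and 60.4 CPM in the smallest. All 11 cDC1 markers, Xcr1, Clec9a and Itgae among them, had counts in every group, while the markers of lymphocytes (7 listed, 5 with a row) and of melanoma cells (7 listed, 3 with a row) summed to at most 20.1 and 7.93 CPM in any library. The summed cDC1 markers were lower with PGE2 (4171 to 4954 CPM) than in untreated cells at 4 h (7767 to 8460 CPM). Of 10 tested markers, 0 were called higher and 9 lower, where 5.21% of all genes were called higher and 3.35% lower. The part of these markers in the results was not tested. In bulk libraries, fewer cells of a kind and less RNA per cell cannot be told apart. Library B of the Ptgs1/Ptgs2-/- CM group and library B of the EP3 antagonist group stood apart from their groups: their cDC1 markers summed to 6503 and 6410 CPM, against 7997 to 9097 and 3883 to 4307 CPM in the other libraries of these groups. Log2 fold changes of Plet1, Csf2rb and Csf2rb2 that rest on them are given with and without them. So are that of Kit between the conditioned media and the numbers of all genes called. Other genes and the gene lists are given with all libraries only.

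Positions are those of GENCODE M21 on GRCm38. Flt3 lies on chromosome 5 from 147330741 to 147400489, minus strand, and Kit on chromosome 5 from 75574916 to 75656722, plus strand. Csf2rb2 (chromosome 15, 78282507 to 78305721, minus strand) and Csf2rb (chromosome 15, 78325752 to 78353847, plus strand) are neighbours on opposite strands. Csf2ra lies on chromosome 19 (61223957 to 61228429, minus strand), Csf1r on chromosome 18 (61100598 to 61132149, plus strand) and Plet1 on chromosome 9 (50494525 to 50505482, plus strand). The antisense gene Plet1os spans all of Plet1, Hmgxb3 overlaps the 3' end of Csf1r and Gm26597 the start of Flt3, and the sources used here do not say that the counting used the strand, so reads of such pairs cannot be told apart. Over all libraries Plet1os held 89 counts beside 47224 of Plet1, Hmgxb3 257 beside 3257 of Csf1r, and Gm26597 25 beside 3255 of Flt3. The longest coding transcripts of Csf2rb and Csf2rb2 were identical at 91.2% of aligned bases, and 18.4% of the 50-base runs of Csf2rb were also present in Csf2rb2. In the last 500 bases, near the tagged 3' end, identity was 83.1% and 0% of the 50-base runs were shared. The sources used here do not say how reads matching both genes were handled, and the split between them carries that uncertainty.

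With PGE2 for 4 h, Plet1 and both beta chain genes were higher in every library than in any untreated library, and the genes for FLT3, the alpha chain and CSF1R did not pass the test. Plet1 stood at 5524, 5302, 5599.5 and 5615 CPM in PGE2-treated cells, against 1297, 858, 882 and 1162.5 CPM in untreated cells. Its log2 fold change was 2.42 ± 0.25 (SE), a 5.36-fold difference (edgeR quasi-likelihood test, adjusted p = 2.22e-08). Csf2rb, the beta chain shared by the receptors of GM-CSF, interleukin-3 and interleukin-5, stood at 2281, 2196, 2323.5 and 2277 CPM in PGE2-treated cells, against 920.0, 711, 705 and 766 CPM in untreated cells. The groups were far apart, with a log2 fold change of 1.58 ± 0.13 (adjusted p = 2.47e-18). Csf2rb2 stood at 613, 649, 681 and 578 CPM in PGE2-treated cells, against 241, 302, 311 and 277 CPM in untreated cells, a log2 fold change of 1.11 ± 0.15 (adjusted p = 2.14e-10). A gene is called where its p adjusted over all genes tested is at most 0.05. In all, 4 of the 7 genes were called higher and 0 lower, where 5.21% of the 5754 genes tested were called higher and 3.35% lower.

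Kit was the fourth gene called, at low counts. It stood at 37.7, 49.7, 28.9 and 38.9 CPM with PGE2, from 7 to 13 counts a library, against 45.2, 20.1, 0 and 7.93 CPM in untreated cells, from 0 to 6 counts. The groups overlapped through untreated library A, the 2nd smallest library, whose 45.2 CPM rest on 3 counts. The log2 fold change was 1.70 ± 0.53 (adjusted p = 0.024), and without untreated library C, the one at 0, the adjusted p was 0.241. The call was also lost without untreated library D (adjusted p = 0.118) and without PGE2 library B (0.0912). Mast cells carry KIT, and markers of granulocytes and mast cells (12 listed, 6 with a row) summed to 0 to 7.64 CPM with PGE2. In untreated cells they summed to 0 to 15.1 CPM. The mast cell markers Cpa3, Fcer1a, Mcpt4 and Mcpt8 had no row. The summed progenitor markers (7 listed, 3 with a row) were nearly all Cd34. They ran from 75.4 to 111 CPM with PGE2 and from 114 to 166 CPM in untreated cells. Their part in the result was not tested.

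The other 3 receptors kept overlapping levels at 4 h. Flt3 stood at 278, 225, 237 and 194 CPM in PGE2-treated cells, against 196, 235, 219.9 and 179.7 CPM in untreated cells, and the log2 fold change was 0.16 with a 95% interval from -0.19 to 0.51 (adjusted p = 0.717). Csf2ra, the GM-CSF-binding chain, averaged 204 ± 28.3 CPM with PGE2 and 179 ± 18.7 CPM in untreated cells (SD, n = 4 each), with an interval of the log2 fold change from -0.24 to 0.53. Csf1r averaged 212 ± 53.7 CPM with PGE2 and 213 ± 45.1 CPM in untreated cells (SD, n = 4 each), with an interval from -0.43 to 0.28. Between the chains of the GM-CSF receptor, the call was thus on the beta chain and not on the alpha chain at 4 h; whether the 2 responses differ was not tested.

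**Figure D1:**
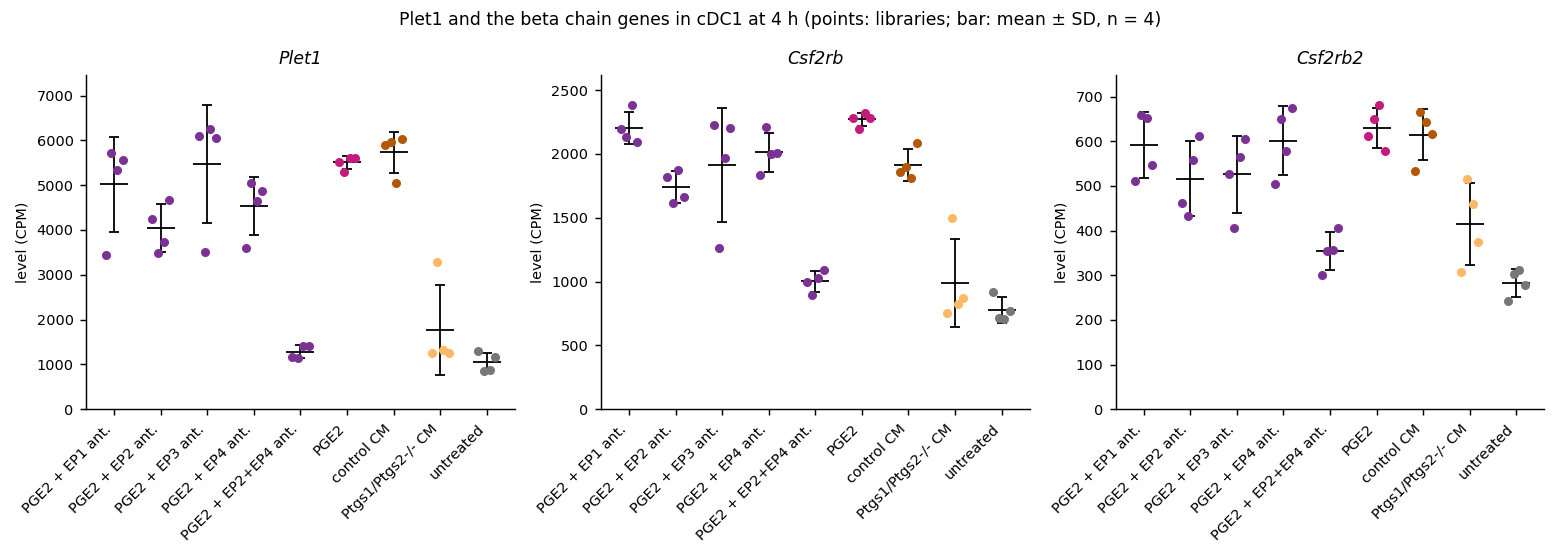
Level in CPM (y axis) of Plet1, Csf2rb and Csf2rb2 in the 4 libraries (points) of each 4 h group (x axis), with the mean and SD as bars. In the 3 panels the PGE2 libraries lie above every untreated library, and the EP2+EP4 antagonist libraries lie below every PGE2 library.

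Between the conditioned media Plet1, Csf2rb, Csf2rb2 and Kit were called higher, 4 of the 7 genes, and 0 lower. Plet1 stood at 5887, 5960.2, 5055 and 6024.5 CPM in control CM, against 1253, 3285, 1323 and 1245 CPM in Ptgs1/Ptgs2-/- CM. The groups did not overlap, although library B of the Ptgs1/Ptgs2-/- CM group was far above its 3 fellows. The log2 fold change was 1.69 ± 0.23 (adjusted p = 1.36e-05) and was 2.18 without that library. In a fit of these 2 groups alone the adjusted p of Plet1 was 0.0571. Csf2rb stood at 1858, 1899, 1807 and 2088 CPM in control CM, against 756, 1499, 827 and 867 CPM in Ptgs1/Ptgs2-/- CM. It was higher in all 4 libraries of control CM, by 0.95 ± 0.13 on the log2 scale (adjusted p = 7.57e-09) and by 1.24 without the same library B. Csf2rb2 stood at 533, 665, 642 and 617 CPM in control CM, against 308, 515, 459.6 and 375 CPM in Ptgs1/Ptgs2-/- CM. The log2 fold change was 0.58 ± 0.13 (adjusted p = 0.0018), and the adjusted p was 0.0729 without library A of the Ptgs1/Ptgs2-/- CM group. Without library B the log2 fold change of Csf2rb2 was 0.71.

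Kit stood at 36.9, 62.1, 61.8 and 35.5 CPM in control CM, against 8.56, 21.2, 19.98 and 3.29 CPM in Ptgs1/Ptgs2-/- CM, where counts were 1 to 7 a library. Its log2 fold change was 1.87 ± 0.47 (adjusted p = 0.0052), and the adjusted p was 0.0577 without library D of the Ptgs1/Ptgs2-/- CM group. Without library B it was 2.23 on the log2 scale. Flt3, Csf2ra and Csf1r had adjusted p-values of 0.615, 0.891 and 0.452. In this comparison 2.43% of all genes tested were called higher and 1.51% lower. Of 10 tested cDC1 markers, 0 were called higher and 6 lower. The cDC1 markers summed to 5276.5 to 5768 CPM in control CM and 6503 to 9097 CPM in Ptgs1/Ptgs2-/- CM. The part of these markers in the results was not tested. Leaving out library A or B of the Ptgs1/Ptgs2-/- CM group changed the number of genes called in either direction to 141 or 306, against 227 with all libraries.

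Control CM was also compared with untreated cells, the same control libraries as in the PGE2 comparison. The 4 genes were called there too, where 4.81% of genes were called higher, with log2 fold changes of 2.48 ± 0.25 for Plet1, 1.34 ± 0.13 for Csf2rb, 1.08 ± 0.14 for Csf2rb2 and 2.04 ± 0.51 for Kit. The cDC1 markers summed to 5276.5 to 5768 CPM in control CM and 7767 to 8460 CPM in untreated cells, and their part was not tested. The adjusted p of Kit was 0.0024, and 0.0678 without untreated library C. Between Ptgs1/Ptgs2-/- CM and untreated cells, 0 of the 7 genes were called and 0.0869% of all genes (edgeR), which is 5 genes. That count was 0 without library B of the Ptgs1/Ptgs2-/- CM group, 0 without untreated library D, 2 without untreated library B and 0 to 7 over all fits that left out 1 library. At an unadjusted p under 0.05, 3 of the 7 passed (Plet1, Csf2rb and Csf2rb2), as did 6.24% of all genes. Csf2rb2 averaged 414 ± 91.2 CPM in Ptgs1/Ptgs2-/- CM and 283 ± 31.2 CPM in untreated cells (SD, n = 4 each). Its log2 fold change was 0.50 with an interval from 0.21 to 0.79 (adjusted p = 0.315). Plet1 differed by 0.80 with an interval from 0.29 to 1.30 (adjusted p = 0.361), and Csf2rb by 0.39 with an interval from 0.12 to 0.65 (adjusted p = 0.399). Without library B these differences were 0.36 for Csf2rb2, 0.31 for Plet1 and 0.10 for Csf2rb.

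The antagonists were set against PGE2 alone, and these comparisons share the PGE2 libraries. No group received an antagonist without PGE2. Effects of the compounds themselves and of blocked PGE2 signalling therefore cannot be told apart. With the pair titled EP2 + EP4, 5 of the 7 genes were lower than with PGE2 alone, where 5.32% of genes were called lower. Plet1 stood at 1154, 1152.5, 1415 and 1403 CPM with the pair, against 5524, 5302, 5599.5 and 5615 CPM with PGE2 alone. It was lower by 2.10 ± 0.24 on the log2 scale (log2 fold change -2.10, adjusted p = 1.45e-07), and the groups were far apart. Csf2rb stood at 994, 896, 1024 and 1090.5 CPM with the pair, against 2281, 2196, 2323.5 and 2277 CPM with PGE2 alone (log2 fold change -1.18 ± 0.12, adjusted p = 3.22e-13). Csf2rb2 stood at 301, 354, 356 and 405 CPM with the pair, against 613, 649, 681 and 578 CPM with PGE2 alone (log2 fold change -0.84 ± 0.13, adjusted p = 2.54e-07). For both beta chain genes every library with the pair was below every PGE2 library. The cDC1 markers summed to 6416 to 6963 CPM with the pair and 4171 to 4954 CPM with PGE2 alone. Their part in these results was not tested.

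Kit had 1 to 3 counts a library with the pair (6.10, 8.64, 5.39 and 2.26 CPM), against 7 to 13 with PGE2 alone (37.7, 49.7, 28.9 and 38.9 CPM). The log2 fold change was -2.72 ± 0.54 (adjusted p = 6.68e-05). Flt3, which did not pass the test with PGE2, was called lower here. It stood at 171, 149.8, 129 and 129 CPM with the pair, against 278, 225, 237 and 194 CPM with PGE2 alone, and the log2 fold change was -0.69 ± 0.17 (adjusted p = 0.0028). The Flt3 libraries with the pair were also all below the untreated libraries, which lay between 179.7 and 235 CPM, but that difference did not pass the adjusted test (log2 fold change -0.53, interval -0.88 to -0.18, adjusted p = 0.158). Csf1r averaged 281 ± 24.8 CPM with the pair and 212 ± 53.7 CPM with PGE2 alone (SD, n = 4 each), with an adjusted p of 0.151.

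Set against untreated cells, the pair of antagonists with PGE2 left 0 of the 7 genes called, where 0.799% of all genes were called in either direction (edgeR). At an unadjusted p under 0.05, 2 of the 7 passed, Flt3 and Csf2rb, as did 11.4% of all genes. Csf2rb averaged 1001 ± 80.8 CPM with the pair and 776 ± 100.2 CPM in untreated cells (SD, n = 4 each). Its log2 fold change was 0.40 with an interval from 0.14 to 0.66 (adjusted p = 0.158, and 0.034 in a fit of these 2 groups alone). Plet1 differed by 0.32 with an interval from -0.18 to 0.82, and Csf2rb2 by 0.27 with an interval from -0.02 to 0.56. Kit differed by -1.02 with an interval from -2.36 to 0.33.

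With each antagonist given singly before PGE2, 0 of the 7 genes were called against PGE2 alone (edgeR). Of all genes tested, 0% were called in either direction with the EP1 antagonist, 0.417% with the EP2, 0.0695% with the EP3 and 0.0348% with the EP4 antagonist. With the EP3 antagonist 4 genes in all were called, 1 without its library B and 0 to 3 over all fits that left out 1 library. At an unadjusted p under 0.05, 0 of the 7 genes passed with the EP1 antagonist, and 2 passed with each of the other antagonists (Csf2rb and Csf2rb2 with EP2 and with EP3, Csf2ra and Kit with EP4). Of all genes, 4.80% passed that unadjusted threshold with EP1, 9.35% with EP2, 8.57% with EP3 and 5.86% with EP4. DESeq2 also called 0 of the 7 with each of the 4. With the EP2 antagonist, Plet1 stood at 4254, 3478, 3740.1 and 4676 CPM, against 5524, 5302, 5599.5 and 5615 CPM with PGE2 alone. Every library was lower, yet the log2 fold change of -0.45 had an interval from -0.91 to 0.01 (adjusted p = 0.546). Csf2rb with the EP2 antagonist stood at 1817, 1615, 1875.0 and 1661 CPM, also below all PGE2 libraries (log2 fold change -0.38, interval -0.63 to -0.14, adjusted p = 0.18). When only these 2 groups were fitted, both passed, with adjusted p = 6.79e-06 for Plet1 and 0.00145 for Csf2rb, and the number of genes called in all was 82, against 24 in the fit of all groups.

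With the EP4 antagonist, Kit stood at 20.1, 7.33, 17.96 and 4.82 CPM, from 1 to 6 counts a library, below all PGE2 libraries. The 20.1 CPM of library A was 1 count in the smallest library, where even 0 counts allow up to 60.4 CPM. That library cannot place Kit below the PGE2 libraries. The log2 fold change of Kit was -1.70, with an interval from -2.80 to -0.60 (adjusted p = 0.54). Csf2ra stood at 60.4, 154, 195 and 101 CPM with the EP4 antagonist, against 245, 183, 188 and 199.9 CPM with PGE2 alone, overlapping through library C (log2 fold change -0.45, interval -0.87 to -0.04, adjusted p = 0.804). The lowest of these libraries, EP4 antagonist A, is the smallest of the series. Plet1 averaged 4542 ± 645 CPM with the EP4 antagonist and 5510.2 ± 144 CPM with PGE2 alone (SD, n = 4 each). As with the EP2 antagonist, every library (3606 to 5047 CPM) was below every PGE2 library (5302 to 5615 CPM). The log2 fold change of Plet1 was -0.25 with an interval from -0.72 to 0.21. With the EP3 antagonist, Plet1 stood at 6093, 3513, 6245 and 6060.0 CPM. Library B alone lay under the PGE2 libraries, and the log2 fold change was -0.02 with all 4 libraries (interval -0.47 to 0.44) and 0.15 without library B. Csf2rb differed by -0.25 with the EP3 antagonist (adjusted p = 0.541) and by -0.10 without the same library, and Csf2rb2 by -0.28 (adjusted p = 0.533) and by -0.17 without it. With the EP1 antagonist, Plet1 stood at 3452, 5710.1, 5346 and 5569 CPM, of which library A was the shallowest of its group, and the log2 fold change was -0.12 (interval -0.58 to 0.34). Between the EP2 and EP4 antagonists 0 of the 7 genes were called, and the interval for Plet1 ran from -0.66 to 0.27 (log2 fold change -0.20, adjusted p = 0.969). In that comparison 0.0174% of all genes were called in either direction, and at an unadjusted p under 0.05 the shares were 1 of the 7 genes, Kit, and 6.20% of all genes.

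**Figure D2:**
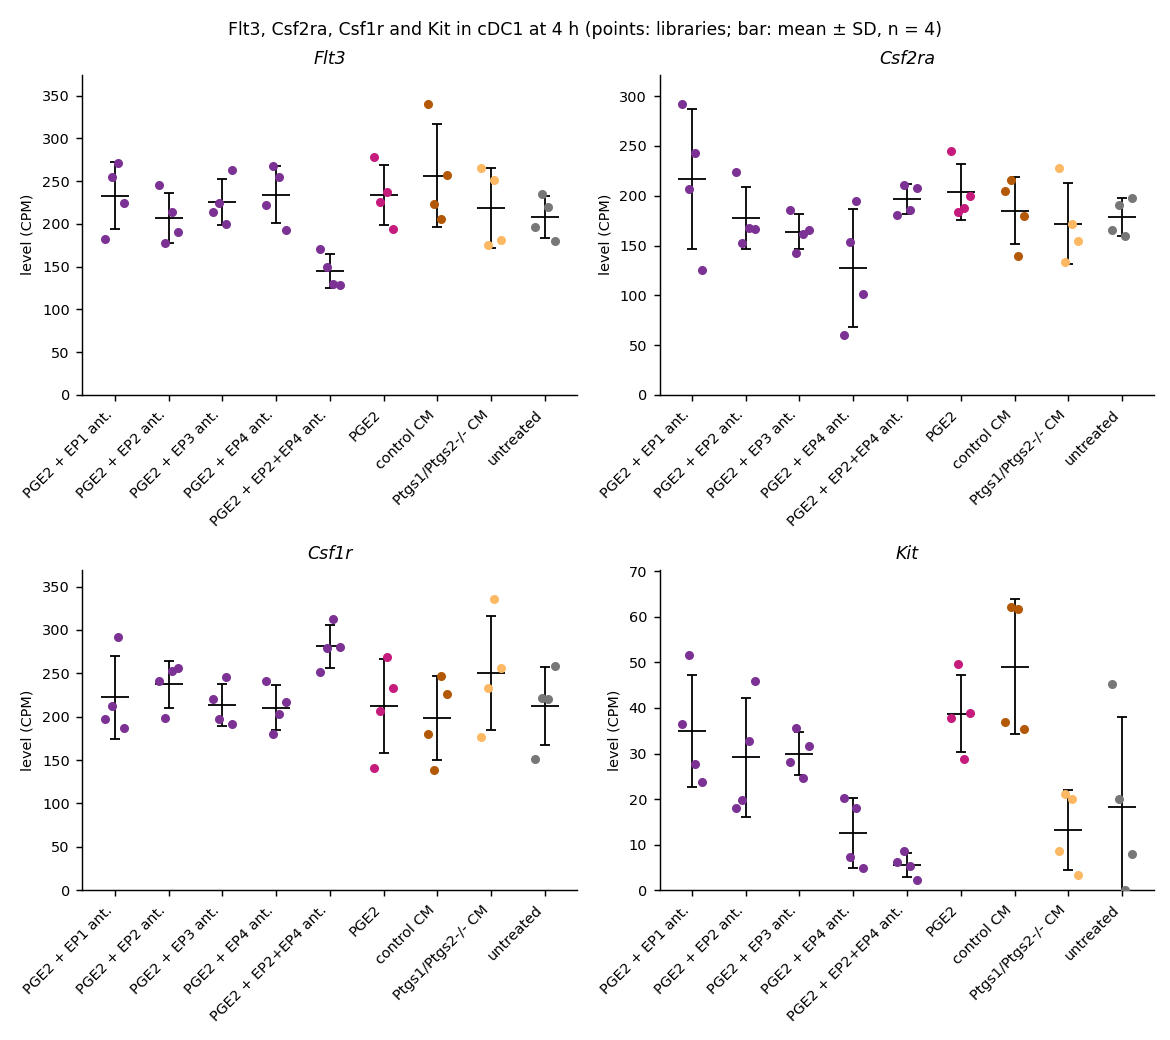
Level in CPM (y axis) of Flt3, Csf2ra, Csf1r and Kit in the 4 libraries (points) of each 4 h group (x axis), with the mean and SD as bars. Flt3 is lowest with the antagonist pair titled EP2+EP4 (129 to 171 CPM), and Kit is at 8.64 CPM or less there. Csf2ra and Csf1r overlap between PGE2 and untreated cells.

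Across the 9 groups at 4 h, the order of the mean levels put Plet1 highest in control CM (5732 CPM) and lowest in untreated cells (1050.0 CPM). Its levels fell into 6 groups between 4037 and 5732 CPM and 3 groups between 1050.0 and 1776.5 CPM (Ptgs1/Ptgs2-/- CM, the antagonist pair and untreated cells). Single libraries of these 2 sets did not overlap, by a narrow margin: the lowest library of the upper set (EP1 antagonist A) stood at 3452 CPM and the highest of the lower set, library B of Ptgs1/Ptgs2-/- CM, at 3285 CPM. Csf2rb was highest with PGE2 (2269.6 CPM) and lowest in untreated cells (776 CPM), and its neighbours in that order overlapped except the EP2 antagonist group (1742 CPM) and the antagonist pair (1001 CPM). For Csf2rb2 every pair of neighbours overlapped, from 630.2 CPM with PGE2 to 283 CPM in untreated cells. Csf2rb counts were 3.38 to 3.94 times those of Csf2rb2 with PGE2 and 2.27 to 3.81 times in untreated libraries. The ratio of the beta chain genes overlapped between the groups only through untreated library A, the 2nd smallest library. Its ratio of 3.81 rests on 61 counts of Csf2rb and 16 of Csf2rb2. In the other untreated libraries the ratio was below that of every PGE2 library. Whether the ratio differs was not tested.

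At 24 h PGE2 left 5 of the 7 genes higher than in untreated cells of the same time, where 4.74% of the 5273 genes tested were called higher. Plet1 stood at 2953, 3261, 2572.5 and 3446 CPM in PGE2-treated cells, against 1427, 1276, 1479 and 1497 CPM in untreated cells, a log2 fold change of 1.14 ± 0.09 (adjusted p = 8.06e-24). The groups were well apart. Csf2rb stood at 1403, 1204, 1305 and 1385 CPM in PGE2-treated cells, against 798, 839.6, 1000.3 and 994 CPM in untreated cells (0.58 ± 0.09, adjusted p = 6.00e-07), again without overlap. Kit stood at 58.2, 30.5, 58.2 and 57.9 CPM with PGE2, from 11 to 21 counts, against 26.9, 22.5, 14.1 and 3.28 CPM in untreated cells, from 1 to 10 counts. Its groups did not overlap, and the log2 fold change was 1.57 ± 0.42 (adjusted p = 0.0055, and 0.0563 without untreated library D).

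Csf2rb2 and Csf1r were called with overlapping libraries. Csf2rb2 stood at 399, 513, 465.5 and 516 CPM in PGE2-treated cells, against 328, 344, 423 and 328 CPM in untreated cells at 24 h (0.44 ± 0.13, adjusted p = 0.012, and 0.0711 without PGE2 library B). Csf1r stood at 308, 377, 285 and 396 CPM in PGE2-treated cells, against 242, 203, 287 and 213 CPM in untreated cells (0.55 ± 0.16, adjusted p = 0.014). The call of Csf1r was lost with DESeq2 (adjusted p = 0.0664) and without untreated library B (0.0859). Without a filter on low counts both calls were lost (0.147 for Csf2rb2 and 0.102 for Csf1r). Over the 8 fits that left out 1 library, the call of Csf2rb2 was lost in 2 and that of Csf1r in 3. CSF1R marks macrophages and monocytes. Their markers (12 listed, 11 with a row) summed to 1363 to 1789 CPM with PGE2 and 981 to 1330 CPM in untreated cells at 24 h. Lyz2 made up most of that sum. Of the 3 tested, Lyz2 was called higher (log2 fold change 0.53 ± 0.10) and Ccr2 lower (-2.95 ± 0.54), both named after their values were seen, and the median was -0.29. Mertk, C1qa, C1qb and C1qc each averaged 1.03 CPM or less over all libraries. Their part in the result was not tested. Flt3 averaged 279 ± 30.0 CPM with PGE2 and 222 ± 38.0 CPM in untreated cells (SD, n = 4 each), with an adjusted p of 0.159, and the interval for Csf2ra ran from -0.53 to 0.05. Beside all these results at 24 h, the cDC1 markers summed to 4449 to 4615 CPM with PGE2 and 7591 to 8149 CPM in untreated cells. Of 10 tested, 7 were called lower, where 170 of all 5273 genes were. The cDC2 markers (8 listed, 7 with a row) summed to 133 to 174 CPM with PGE2 and 59.1 to 109.9 CPM in untreated cells, with 2 tested and 1 called higher, Cd7 (3.32 ± 0.57, named after its value was seen). The part of these markers in the results was not tested.

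In untreated cells 2 of the 7 genes were higher at 24 h than at 4 h, where 2.3% of the 5403 genes tested over both times were called higher. Csf2ra stood at 371, 251, 316 and 318 CPM at 24 h, against 166, 191, 159.9 and 198 CPM at 4 h, without overlap (0.78 ± 0.16, adjusted p = 0.00023). Plet1 averaged 1419.7 ± 100.1 CPM at 24 h and 1050.0 ± 215 CPM at 4 h (SD, n = 4 each), with overlapping libraries (0.47 ± 0.10, adjusted p = 0.00074). The difference made by PGE2 was smaller at 24 h than at 4 h for 3 genes, where 2.24% of genes had such a lower difference. The change in log2 fold change was -1.31 ± 0.14 for Plet1 (adjusted p = 1.52e-14), -1.02 ± 0.14 for Csf2rb (adjusted p = 1.91e-08) and -0.69 ± 0.18 for Csf2rb2 (adjusted p = 0.01). The Csf2rb2 call was lost without untreated library C at 24 h (adjusted p = 0.055). For Kit the interval of that change ran from -1.43 to 1.12, and for Csf1r it was 0.61 with an interval from 0.17 to 1.05 (edgeR, adjusted p = 0.115, and 0.036 with library totals alone).

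Poly I:C for the last 4 h changed most genes, with 31.3% of genes called higher and 33.7% called lower against untreated cells at 24 h. Csf1r had the largest difference of the 7 genes. It stood at 29.0, 16.9, 28.5 and 13.7 CPM with poly I:C, from 3 to 6 counts a library, against 242, 203, 287 and 213 CPM in untreated cells, from 65 to 102 counts. The log2 fold change was -3.52 ± 0.29, an 11.5-fold lower level (adjusted p = 4.01e-24). Flt3 stood at 87.1, 67.7, 104.6 and 68.4 CPM with poly I:C, against 201.5, 245, 180.3 and 263 CPM in untreated cells (-1.54 ± 0.22, adjusted p = 1.38e-10). Plet1 stood at 662, 699.9, 509 and 679 CPM with poly I:C, against 1427, 1276, 1479 and 1497 CPM in untreated cells (-1.27 ± 0.10, adjusted p = 3.96e-24). For these 3 genes every poly I:C library was below every untreated library. The cDC1 markers summed to 4628 to 5477 CPM with poly I:C and 7591 to 8149 CPM in untreated cells, with 8 of 10 called lower, and the cDC2 markers to 0 to 14.3 CPM with poly I:C and 59.1 to 109.9 CPM in untreated cells. The part of either in these results was not tested. Kit held 1 or 2 counts a library with poly I:C and was not called (adjusted p = 0.0557). The macrophage and monocyte markers (12 listed, 11 with a row) summed to 502 to 677 CPM with poly I:C and 981 to 1330 CPM in untreated cells. Of the 3 tested, 0 were called higher and 2 lower. The part of these markers in the fall of Csf1r was not tested.

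The GM-CSF receptor chains were called higher with poly I:C after TMM scaling, by 0.75 ± 0.14 for Csf2ra (adjusted p = 8.04e-07), 0.55 ± 0.10 for Csf2rb (adjusted p = 2.31e-07) and 0.32 ± 0.13 for Csf2rb2 (adjusted p = 0.027), but with library totals alone these values turned to -0.03, -0.23 (adjusted p = 0.025) and -0.46 (adjusted p = 0.0012). That scaling moved the median of all genes to -0.87, against -0.10 with TMM, and the calls to 975 higher and 3087 lower, against 1651 higher and 1777 lower. TMM factors were 0.611 to 0.634 in the 8 libraries with poly I:C. Csf2ra stood at 679, 519, 689 and 406 CPM with poly I:C, against 371, 251, 316 and 318 CPM in untreated cells. Csf2rb averaged 1431 ± 154 CPM with poly I:C and 908 ± 104.5 CPM in untreated cells (SD, n = 4 each). The call of Csf2rb2 was also lost with DESeq2 (adjusted p = 0.205). In edgeR it was lost with DESeq2 size factors (adjusted p = 0.164), without a filter on low counts (0.0823) and with only the groups compared (0.11). It was lost in 4 of the 8 fits that left out 1 library, with the highest adjusted p (0.117) without poly I:C library C.

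**Figure D3:**
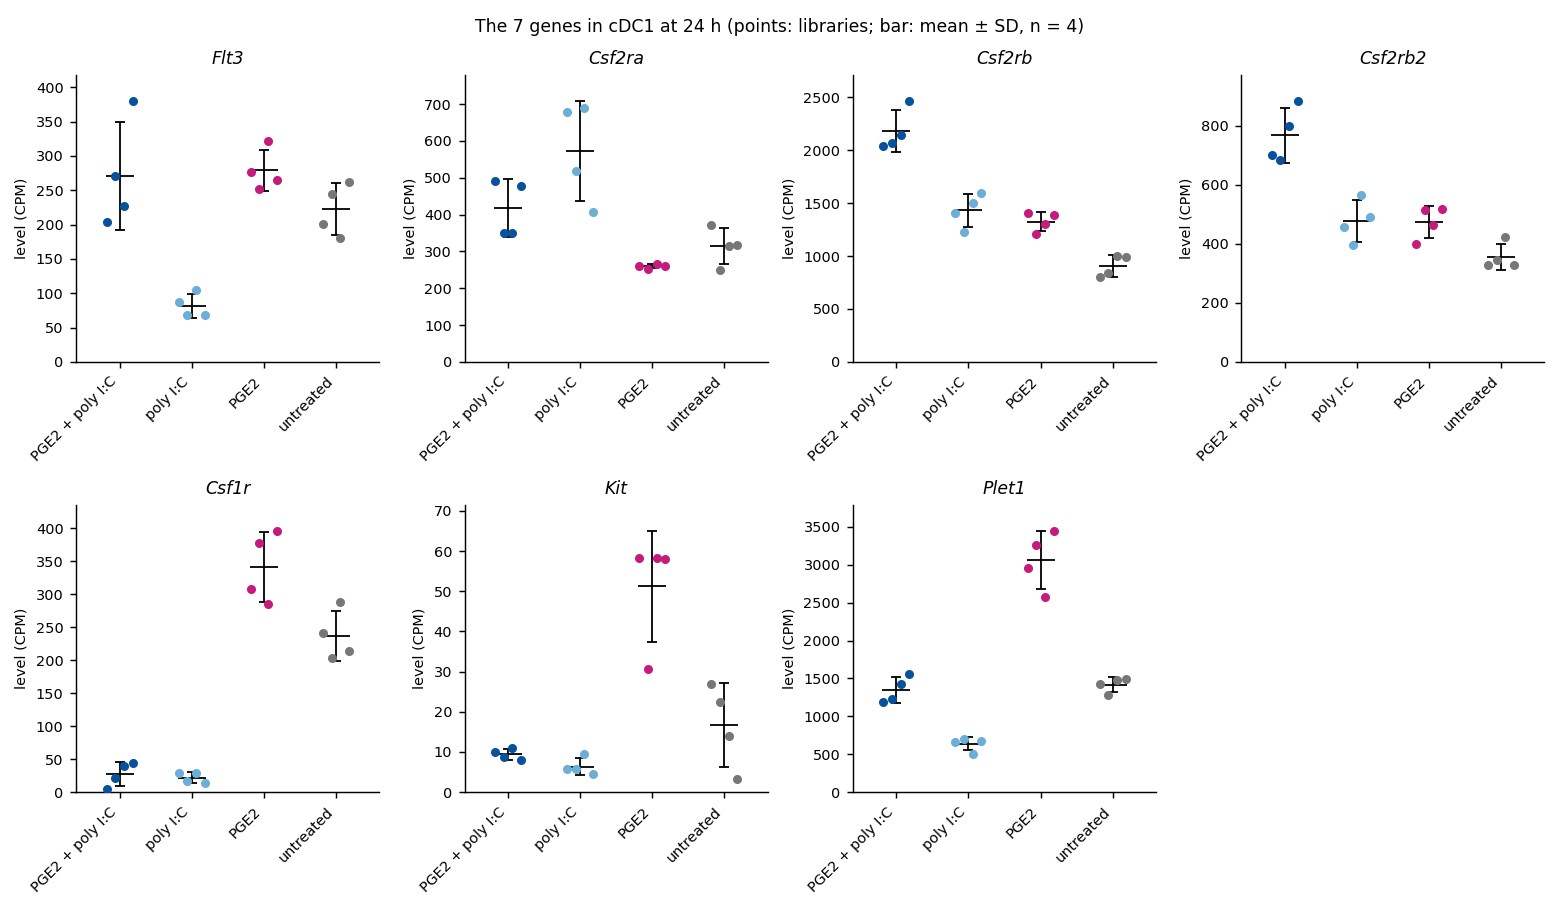
Level in CPM (y axis) of the 7 genes in the 4 libraries (points) of each 24 h group (x axis), with the mean and SD as bars. Flt3 is at 67.7 to 104.6 CPM with poly I:C and at 204 CPM or more in the PGE2 + poly I:C group, while Csf1r is low in both groups with poly I:C.

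PGE2 before poly I:C was compared with poly I:C alone. Flt3 had the largest log2 fold change of the 7 genes in this comparison. It stood at 204.0, 270.4, 228 and 381 CPM in cells given PGE2 and poly I:C, against 87.1, 67.7, 104.6 and 68.4 CPM with poly I:C alone. All 4 libraries with PGE2 lay above the others, with a log2 fold change of 1.74 ± 0.22, a 3.34-fold higher level (adjusted p = 6.35e-11). The cDC2 markers summed to 22.2 to 36.1 CPM with both agents and 0 to 14.3 CPM with poly I:C alone, with neither of the tested markers called. The plasmacytoid markers (7 listed, most of the sum being Bst2) summed to 881 to 1232 CPM with both agents and 627 to 825 CPM with poly I:C alone, with 2 tested and Bst2 called higher (0.75 ± 0.13, named after its value was seen). In untreated cells at 24 h they summed to 113 to 177 CPM. Apart from Bst2, none averaged above 21.4 CPM over all libraries. The cDC1 markers summed to 4712 to 5349 CPM with both agents and 4628 to 5477 CPM with poly I:C alone. Of 10 tested, 1 was called higher and 3 lower, where 5.03% of genes were called higher and 5.65% lower. The macrophage and monocyte markers summed to 414 to 483 and 502 to 677 CPM, with 3 tested and 1 called lower. The part of these markers in the result was not tested. The Flt3 level with both agents overlapped that with PGE2 alone at 24 h, which was 277, 253, 322 and 265 CPM. That comparison was not called with TMM scaling (log2 fold change -0.17, interval -0.50 to 0.16), whereas with library totals alone, where the median of all genes was -0.88, it was -0.94 (adjusted p = 1.09e-07). The effect of PGE2 on Flt3 differed between cells with and without poly I:C by 1.37 ± 0.28 on the log2 scale (interaction term, adjusted p = 0.00029). In that test 1 of the 7 genes was called, where 0.853% of genes were called higher and 2.43% lower, and the adjusted p of Flt3 reached at most 0.007 when any 1 library was left out.

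Plet1 and the beta chain genes were higher with PGE2 under poly I:C as well, and 4 of the 7 genes were called higher and 1 lower, where 5.03% of genes were called higher and 5.65% lower. Plet1 stood at 1184, 1234, 1421 and 1555 CPM in cells given PGE2 and poly I:C, against 662, 699.9, 509 and 679 CPM with poly I:C alone (1.09 ± 0.11, adjusted p = 1.05e-16). Csf2rb stood at 2035, 2067, 2142 and 2468 CPM with both agents, against 1405, 1230.4, 1497 and 1591 CPM with poly I:C alone (0.61 ± 0.09, adjusted p = 1.15e-07). Csf2rb2 stood at 702, 685, 799 and 885 CPM with both agents, against 459, 395, 566 and 492 CPM with poly I:C alone (0.68 ± 0.13, adjusted p = 1.54e-05). For all 3 the groups were separate. The interval of the difference between the effects of PGE2 with and without poly I:C ran from -0.33 to 0.23 for Plet1, from -0.24 to 0.29 for Csf2rb and from -0.11 to 0.60 for Csf2rb2.

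Csf2ra was the gene called lower: it stood at 493, 349, 349.7 and 477 CPM in cells given PGE2 and poly I:C, against 679, 519, 689 and 406 CPM with poly I:C alone. The groups overlapped (-0.45 ± 0.14, adjusted p = 0.024). The call was lost with DESeq2 (adjusted p = 0.0775) and without a filter on low counts (0.146). It was also lost in 4 of the 8 fits that left out 1 library, with the highest adjusted p (0.17) without poly I:C library C. Csf1r stood at 4.98, 21.8, 38.9 and 44.1 CPM with both agents, from 1 to 11 counts, against 29.0, 16.9, 28.5 and 13.7 CPM with poly I:C alone, and the interval of the log2 fold change ran from -0.58 to 1.27. Kit held 2 counts in each library with both agents. Against PGE2 alone, cells given PGE2 and poly I:C had lower Csf1r (-3.72 ± 0.26), Kit (-2.52 ± 0.53) and Plet1 (-1.32 ± 0.09), where 34% of genes were called lower. In the same comparison Csf2ra, Csf2rb and Csf2rb2 were called higher, by 0.54, 0.58 and 0.56, where 30.8% of genes were, and with library totals alone these turned to -0.23, -0.20 and -0.21.

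**Figure D4:**
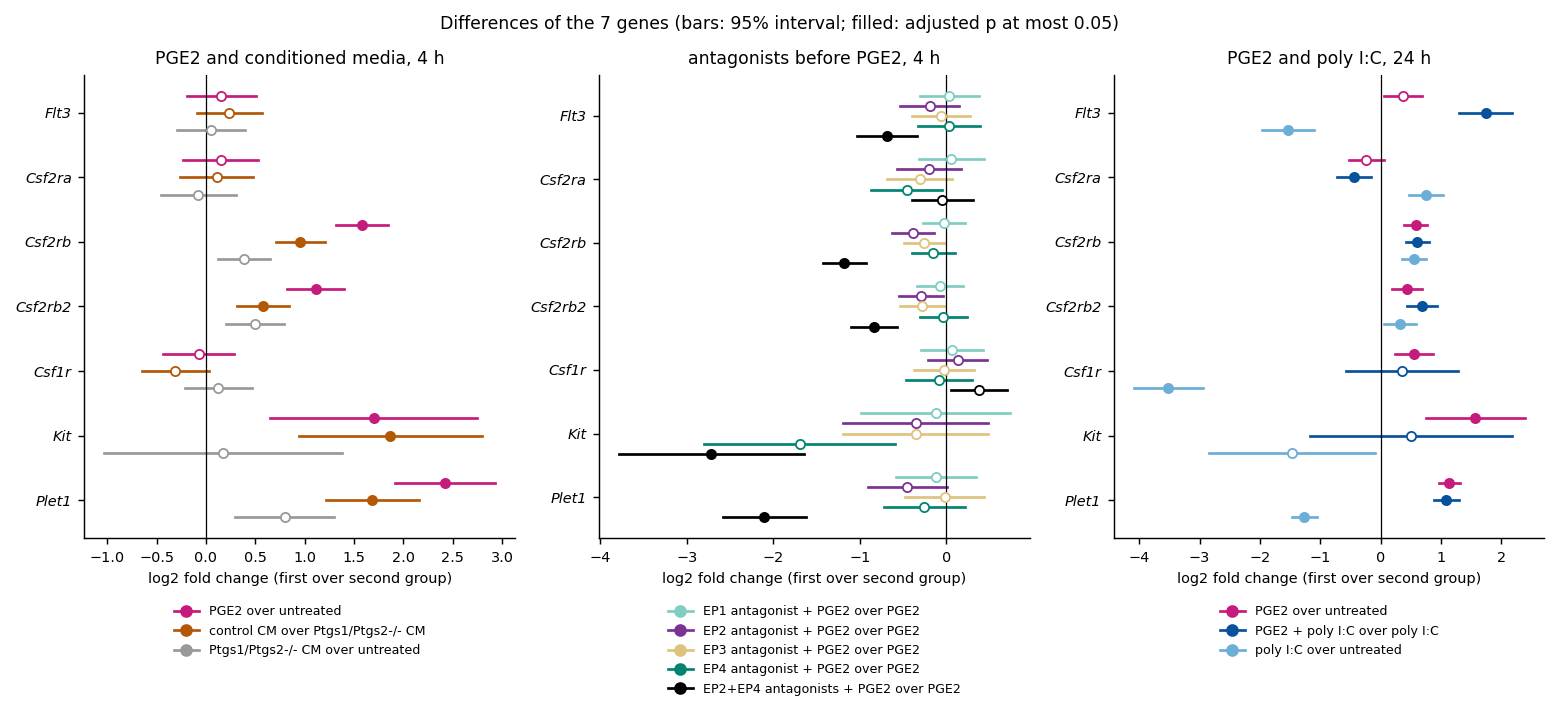
Log2 fold change (x axis, first-named over second-named group) of the 7 genes (y axis) with its 95% interval, for conditioned media and PGE2 at 4 h (left), antagonists at 4 h (middle) and PGE2 and poly I:C at 24 h (right); filled points had an adjusted p of at most 0.05. Plet1, Csf2rb and Csf2rb2 are to the right of 0 in every comparison of PGE2 with its control, and Flt3 is at -1.54 for poly I:C over untreated and at 1.74 for PGE2 with poly I:C over poly I:C; the poly I:C values of Csf2ra, Csf2rb and Csf2rb2 lie above 0 here and turn below 0 with library totals alone.

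The genes whose pattern was most like each of the 7 were taken by Pearson's r over the 13 group means of log2 CPM among 4886 genes tested at both times, as a description. Csf2rb and Csf2rb2 followed each other (r = 0.95), and Isy1 (0.96) and Crem (0.95), a gene induced by cAMP, were the other 2 nearest to Csf2rb. Nearest to Plet1 were Jtb (0.97), Rhoq (0.97) and Antxr2 (0.96). Flt3 was nearest to St3gal4 (0.92), Dhx36 (0.90) and Fam107b (0.87). Csf1r was nearest to Agfg2 (0.99), Dgkz (0.99) and Slc38a10 (0.98), Csf2ra to St13 (0.95), Rtraf (0.94) and Mfsd1 (0.94), and Kit to the endocytic adaptor gene Dab2 (0.92), the decoy receptor gene Il1r2 (0.89) and Spg21 (0.87). Among the 7 genes, Plet1 and Kit had r = 0.80 and Csf2ra and Csf1r r = -0.77. The groups share libraries of 2 times and 2 poly I:C groups that differ from the rest in most genes, which any such r contains.

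Other genes of the pathway came from 4 lists. None of 10 ligands (Flt3l, Csf2, Csf1, Kitl, Il3 and others) passed the filter on low counts, and 3 of the 10 had a row in the table. Of 16 tested receptors of other cytokines (27 listed, 24 with a row), 3 were called higher and 0 lower with PGE2 at 4 h. Over all genes tested, 5.21% were called higher and 3.35% lower. The median log2 fold change of these receptors was 0.16, against -0.01 over all genes tested. Il21r, the interleukin-21 receptor, averaged 122 CPM with PGE2 and 24.6 CPM in untreated cells (1.96 ± 0.31, adjusted p = 1.03e-07). Ifngr1, a chain of the interferon-gamma receptor, averaged 339 CPM with PGE2 and 143 CPM in untreated cells (1.18 ± 0.19, adjusted p = 2.21e-07). The third was Il6ra, the interleukin-6 receptor (0.95 ± 0.28), named after its values were seen. At 24 h, where 4.74% of all genes were called higher, 5 of the 16 were higher and 0 lower (median 0.36, against 0.03 over all genes). These were Ifngr1, Il21r, Il4ra, Il6st and Il2rg, the common gamma chain, which averaged 31.8 CPM with PGE2 and 5.69 CPM in untreated cells (2.41 ± 0.49, adjusted p = 9.48e-05). Between PGE2 with poly I:C and poly I:C alone, Il6st, the shared gp130 chain, was higher (1.31 ± 0.35), Il21r was higher (0.67 ± 0.18) and Il10rb was lower (-0.79 ± 0.23). Between control CM and Ptgs1/Ptgs2-/- CM, 2 of the 16 were higher, Ifngr1 (0.74 ± 0.17) and Ifngr2 (0.50 ± 0.14, named after its values were seen), and 0 lower. In that comparison 2.43% of all genes were called higher and 1.51% lower.

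Kinases, adaptors and factors below these receptors made up the third list. Of 24 tested at 4 h, 0 were called higher and 3 lower with PGE2, with a median of 0.05, against -0.01 over all genes. Over all genes tested, 5.21% were called higher and 3.35% lower. Ptpn6, which encodes the phosphatase SHP-1, averaged 317 CPM with PGE2 and 470.4 CPM in untreated cells (-0.59 ± 0.14, adjusted p = 0.0015). Spi1, which encodes the myeloid factor PU.1, was also lower (log2 fold change -0.38 ± 0.12, adjusted p = 0.037). At 24 h, 1 of 26 was higher, Stat3 (0.57 ± 0.18, named after its values were seen), and 1 was lower. Over the 5273 genes tested, 4.74% were called higher and 170 genes lower. Spi1 was called in the same comparison as Flt3 under poly I:C and averaged 507 CPM in cells given PGE2 and poly I:C and 228 CPM with poly I:C alone (1.16 ± 0.15, adjusted p = 2.16e-10). In the same comparison Jak2, the kinase bound to the beta chain, was higher (0.70 ± 0.15), and Stat5a (-0.65 ± 0.16) and Pik3r1 (-0.91 ± 0.25) were lower.

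Genes known as targets of STAT5, which GM-CSF receptors activate, included Cish, Socs2 and Mcl1. Of 10 tested at 4 h, 5 were higher and 1 lower with PGE2, with a median of 0.45, against -0.01 over all genes. Over all genes tested, 5.21% were called higher and 3.35% lower. Cish averaged 235 CPM with PGE2 and 98.8 CPM in untreated cells (1.02 ± 0.21, adjusted p = 7.72e-05), and Socs2, which like Cish encodes an inhibitor of cytokine signalling, averaged 39.7 CPM with PGE2 and 8.14 CPM in untreated cells (2.52 ± 0.60, adjusted p = 0.0011). Mcl1, a survival gene, was higher by 0.68 ± 0.16, as were Pim1 (0.88 ± 0.21) and Bcl2l1 (0.88 ± 0.27), both named after their values were seen, and Myc was lower (-1.57 ± 0.27). Between control CM and Ptgs1/Ptgs2-/- CM, 2 of 10 were higher (Cish 0.72 ± 0.20 and Mcl1 0.51 ± 0.16) and 1 lower (Myc -0.93 ± 0.25). In that comparison 2.43% of all genes were called higher and 1.51% lower. At 24 h, 3 of 11 were higher and 2 lower with PGE2, with a median of 0.06, near the 0.03 of all genes. Over the 5273 genes tested, 4.74% were called higher and 170 genes lower. The higher were Ccnd2, which encodes cyclin D2 (1.38 ± 0.14), Socs2 (2.51 ± 0.43) and Mcl1 (0.51 ± 0.13), and the lower were Socs1 (-0.41 ± 0.13) and Id2 (-0.29 ± 0.09), the last named after its values were seen. Between PGE2 with poly I:C and poly I:C alone, 2 of 11 were higher (Ccnd2 and Socs2) and 1 lower, Socs1. It averaged 674 CPM with both agents and 1135 CPM with poly I:C alone (-0.75 ± 0.12). In that comparison 5.03% of all genes were called higher and 5.65% lower.

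Plet1 is also an epithelial gene, and Itgae, which encodes CD103, is the gene behind the sort. Itgae averaged 317 CPM with PGE2 and 457 CPM in untreated cells at 4 h (-0.45 ± 0.15, adjusted p = 0.043), the opposite direction to Plet1. Of 6 epithelial markers, 5 with a row, Epcam and Cdh1, which dendritic cells can express, averaged 95.9 and 99.1 CPM over all libraries. Krt5, Krt8 and Krt18 averaged 0.444 CPM or less. The epithelial markers summed to 161 to 208 CPM with PGE2 and to 183 to 287 CPM in untreated cells at 4 h. They summed to 213 to 299 CPM in control CM and 239 to 359.7 CPM in Ptgs1/Ptgs2-/- CM. Their part in the Plet1 results was not tested.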

How the data were processed

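Bulk RNA of sorted CD103+ cDC1 was sequenced as unique molecular identifiers at transcript 3' ends. Per the labels' protocols, the authors ran the libraries on a NextSeq 500 and made the counts with the Drop-seq pipeline against Ensembl GRCm38; DESeq2 1.14.1 and GRCm38.p6 also stand in the submitters' processing notes. The deposited table holds raw counts per gene, with no normalization. Of its 23136 lines, 1 held a text entry and was left out, and 20 gene names turned into dates held 0.105% of counts. The labels name 4 biological replicates a group without saying that they came from separate animals or cultures, so the spread between libraries can be technical variation. The p-values rest on a spread estimated over all groups of a fit. Libraries outside a comparison therefore also shape its p-values. Over 78 pairs of libraries of a group, chi-square per degree of freedom was 1.38 to 2.68, so no pair was a copy. A count of 0 allows up to 3 counts, for counting error only.

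Genes were filtered by filterByExpr, scaled by TMM and tested with edgeR 4.0.16 (robust quasi-likelihood, R 4.3.3, limma 3.58.1): 5754 genes over 36 libraries at 4 h, 5273 over 16 at 24 h, and 5403 over the 16 untreated and PGE2 libraries of both times. P-values were adjusted by Benjamini-Hochberg over all genes tested, with a threshold of 0.05. All 7 genes are described. From each list at most 6 genes with the smallest adjusted p were named, plus Itgae, and 3 genes by likeness to each of the 7; 1 gene of the signalling list is not reported here. Alternatives were DESeq2 size factors, library totals alone, no filter, a replicate block, DESeq2 1.42.0, only the groups compared, leaving out each library and leaving out the 2 smallest. Replicate letters did not pair libraries. The genes and lists were chosen with earlier results of these data known.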

Additional observations from a re-analysis of the deposited data

Results flagged for a closer look

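In groups of 4 libraries, 7 of 91 gene and group pairs held a library far from the other 3 by Dixon's test at 95%, where chance gives about 1 in 20, or 4.55. Library B of the Ptgs1/Ptgs2-/- CM group was high for Plet1 (3284.8 CPM, the others 1245 to 1323) and for Csf2rb (1498.6 CPM, the others 756 to 867). Plet1 was low in library C of control CM (5055.4 CPM, the others 5887 to 6024.5), in library A of the EP1 antagonist group (3451.9 CPM, the others 5346 to 5710.1; this library held 110698 counts) and in library B of the EP3 antagonist group (3513.2 CPM, the others 6060.0 to 6245). Csf2rb2 was high in library C of untreated cells at 24 h (422.67 CPM, the others 328 to 344). Kit was low in library B of PGE2 at 24 h (30.527 CPM, the others 57.9 to 58.2).

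Tests of the difference between effects called 4 results. The effect of PGE2 at 24 h minus that at 4 h was -1.3054 on the log2 scale for Plet1, -1.0198 for Csf2rb and -0.68943 for Csf2rb2. The effect of PGE2 on Flt3 with poly I:C minus that without was 1.3683.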

How the results depend on the processing

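With library totals alone in place of TMM, the poly I:C values of Csf2ra, Csf2rb and Csf2rb2 reversed to -0.026, -0.23 and -0.46 against untreated cells and to -0.23, -0.20 and -0.21 for PGE2 with poly I:C against PGE2, and the split of all calls there was 975 higher and 3087 lower, and 890 higher and 3085 lower. That scaling also gave 237 higher and 332 lower with PGE2 at 4 h (300 and 193 with TMM), 120 and 121 for control CM against Ptgs1/Ptgs2-/- CM (140 and 87), 228 and 240 for control CM against untreated cells (277 and 158), 384 and 259 for the antagonist pair against PGE2 (242 and 306), and 176 and 90 for the PGE2 effect at 24 h against 4 h (114 and 121). Values near 0 reversed for Csf2rb with the EP1 antagonist (0.045, library totals) and, with no filter on low counts, for Plet1 with the EP3 antagonist (0.022) and in the poly I:C interaction (0.014). Kit with poly I:C was called in edgeR with DESeq2 size factors (adjusted p = 0.0376) and library totals (0.002). With library totals Csf1r was called higher in the PGE2 effect at 24 h against 4 h (0.73, edgeR adjusted p = 0.036). There 4 rather than 3 of the 7 genes were called. With no filter, 3 rather than 5 of the 7 genes were called with PGE2 at 24 h, Kit at 4 h (0.0587) and Csf2rb2 in the PGE2 effect at 24 h against 4 h (0.0587) lost their calls, and counts over all genes were 10 for Ptgs1/Ptgs2-/- CM against untreated cells, 0 for the EP3 and 0 for the EP4 antagonist, 2 for EP2 against EP4, 81 for the interaction, 151 for untreated 24 h against 4 h and 129 for the PGE2 effect at 24 h against 4 h. In fits of only the groups compared, 2 of the 7 genes and 82 genes in all were called with the EP2 antagonist, 9 in all with EP3, 9 for EP2 against EP4, and 1 of the 7 and 75 in all for the antagonist pair against untreated cells. DESeq2 called 3 for Ptgs1/Ptgs2-/- CM against untreated cells and 0 for EP2 against EP4. Library totals gave 29 for the pair against untreated cells and 0 for EP2 against EP4. Without the 2 smallest libraries the counts were 3 for Ptgs1/Ptgs2-/- CM against untreated cells, 1 for EP4, 24 for the pair against untreated cells and 0 for EP2 against EP4. Replicate letters did not pair the libraries (same-letter correlations -0.066 to 0.056). The replicate block changed no call among the 7 genes, and moved the count for EP2 against EP4 to 0. The cause of these changes was not tested.

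Leaving out each library in turn, calls over all genes ranged from 141 to 306 between conditioned media, 0 to 0 for EP2 against EP4, 7 to 20 for EP2, 0 to 3 for EP3, 0 to 3 for EP4, 15 to 40 for the pair against untreated cells and 0 to 7 for Ptgs1/Ptgs2-/- CM against untreated cells, and calls among the 7 genes from 3 to 5 with PGE2 at 24 h. Log2 fold changes near 0 ranged from -0.24 to 0.068 for Csf1r with PGE2 at 4 h, -0.099 to 0.0059 for Csf2rb2 with EP4, -0.19 to 0.016 for Plet1 with EP1, -0.084 to 0.15 for Plet1 with EP3, -0.022 to 0.10 for Csf2rb and -0.12 to 0.025 for Plet1 in the interaction, and -0.041 to 0.65 for Csf1r with PGE2 and poly I:C against poly I:C. Kit rests on 0 to 21 counts a library, which limits its precision.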
